A study of Homo sapiens with 2 samples.

Results

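The plasminogen activators PLAU and PLAT, the urokinase receptor PLAUR, the plasminogen receptor PLGRKT and the serpins SERPINE2 and SERPINB2 were examined in NCI-H460, an established line of large cell carcinoma of the human lung. The 6 genes were chosen by symbol from the 58735 genes of the count table, and all 6 were among the 13942 genes tested, which are those with a mean of at least 1 CPM (counts scaled to library size) over both libraries. The labels and the title give NCI-H460, the line followed here, although the design text has NCI-H469. Each group was 1 library of poly-A RNA collected 24 h after transfection with a lipid reagent, and the labels put both in the same batch. The siCYP4F11 library was made from CYP4F11 knockdown cells, transfected with a targeting siRNA. CYP4F11 is a cytochrome P450 of fatty acid omega-hydroxylation. The siControl library came from cells that received no siRNA against CYP4F11, and no control sequence is named. The series asks how loss of CYP4F11 affects growth and movement of these cells. With 1 library per group no difference has a replicate check, no p-value was computed, and every value compares these 2 libraries.

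Plasminogen is an inactive protease precursor that the activators cleave to plasmin, which in turn degrades fibrin and other matrix proteins. Urokinase acts mainly while held at the cell surface by its receptor, and cells that carry plasminogen receptors concentrate the substrate beside it. Serpins are suicide inhibitors that trap their target protease in a covalent complex. In lung carcinoma the system is studied for its part in pericellular proteolysis and cell migration.

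The library check came first. CYP4F11 had 972 counts in the siCYP4F11 library against 3180 in the siControl library, a log2 ratio of -1.40 with a 95% counting interval from -1.51 to -1.30. The libraries held 13002179 counts in siCYP4F11 and 16207785 in siControl, and 22967 and 23341 genes had reads in siCYP4F11 and siControl. Of the epithelial markers, KRT7, KRT8, KRT18 and KRT19 were well detected, while EPCAM had 8 counts in siCYP4F11 and 6 in siControl and CDH1 had 0 and 1. Summed leukocyte markers reached 2.53 CPM in siCYP4F11 and 1.36 CPM in siControl, and PTPRC and CD3E were at 0 in both. Endothelial markers summed to 0.460 CPM in siCYP4F11 and 0.0619 CPM in siControl, with PECAM1, VWF and CDH5 at 0 in both. Fibroblast markers summed to 67.6 CPM in siCYP4F11 and 64.9 CPM in siControl, mostly COL3A1.

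The promoters of 5 of the 6 genes are shown so that the start regions of the activation genes and the serpins can be compared. Each window runs from 250 bases before to 50 bases after a start site in RefSeq on GRCh38.p14, 5′ to 3′ on the strand of the gene. PLAU lies at chr10:73910882-73911181 on the plus strand, PLAUR at chr19:43670120-43670419 on the minus strand and PLGRKT at chr9:5437876-5438175 on the minus strand. SERPINE2 lies at chr2:224038591-224038890 on the minus strand and SERPINB2 at chr18:63887455-63887754 on the plus strand. Capitals mark matches on either strand to TGANTCA (the AP-1 motif), TATAAA (the TATA box), GGGCGG (the GC box), CCGGAAG (an ETS motif) or CCAAT.
PLAU: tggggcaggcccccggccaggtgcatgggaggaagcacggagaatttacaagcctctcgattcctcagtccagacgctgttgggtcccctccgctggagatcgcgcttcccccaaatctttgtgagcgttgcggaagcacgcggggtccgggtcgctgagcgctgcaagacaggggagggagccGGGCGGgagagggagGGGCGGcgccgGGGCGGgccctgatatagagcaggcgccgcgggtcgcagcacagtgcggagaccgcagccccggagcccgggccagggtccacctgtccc
PLAUR: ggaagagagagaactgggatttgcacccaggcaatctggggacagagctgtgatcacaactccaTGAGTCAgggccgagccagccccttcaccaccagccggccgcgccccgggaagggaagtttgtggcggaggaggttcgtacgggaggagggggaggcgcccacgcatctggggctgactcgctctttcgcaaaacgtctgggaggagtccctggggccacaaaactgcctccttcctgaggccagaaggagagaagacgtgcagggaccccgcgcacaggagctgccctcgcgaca
PLGRKT: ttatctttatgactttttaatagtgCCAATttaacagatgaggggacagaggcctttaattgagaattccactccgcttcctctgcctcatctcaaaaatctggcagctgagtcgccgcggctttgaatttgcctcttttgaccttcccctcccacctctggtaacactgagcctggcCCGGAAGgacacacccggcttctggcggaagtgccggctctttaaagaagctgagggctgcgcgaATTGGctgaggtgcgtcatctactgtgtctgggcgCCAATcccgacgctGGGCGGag
SERPINE2: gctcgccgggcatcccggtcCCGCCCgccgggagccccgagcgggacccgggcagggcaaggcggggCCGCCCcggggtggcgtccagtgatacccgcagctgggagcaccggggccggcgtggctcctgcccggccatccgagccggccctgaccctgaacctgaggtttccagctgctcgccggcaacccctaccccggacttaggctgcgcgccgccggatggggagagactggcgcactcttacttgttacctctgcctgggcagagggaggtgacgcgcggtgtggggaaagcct
SERPINB2: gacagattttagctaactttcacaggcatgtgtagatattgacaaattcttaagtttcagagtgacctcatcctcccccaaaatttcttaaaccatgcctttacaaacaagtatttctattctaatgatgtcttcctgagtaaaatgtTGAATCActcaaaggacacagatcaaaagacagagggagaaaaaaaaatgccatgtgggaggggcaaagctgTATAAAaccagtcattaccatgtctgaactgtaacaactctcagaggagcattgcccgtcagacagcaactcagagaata
A PLAT window is not shown, and RefSeq lists a second start for PLAU and for SERPINE2 that is not shown either.

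The windows differed in composition and in the motifs they held. PLAU held 3 GC boxes, the nearest starting 40 bases before the start site, at a GC content of 70.0%. The SERPINE2 window shown was similar, with 2 GC boxes and a GC content of 73.7%. The second windows of these genes, not shown, differed from these. That of PLAU held 0 GC boxes and 1 CCAAT match at 48.7% GC. That of SERPINE2 held 1 GC box and 7 CCAAT matches at 54.0% GC. PLAUR, at 64.0% GC, and SERPINB2, at 39.0% GC, each held 1 AP-1 match, starting 186 bases before the start site in PLAUR (TGAGTCA) and 102 bases before it in SERPINB2 (TGAATCA). SERPINB2 also held a TATA box that starts 30 bases before the start site. PLGRKT, at 53.7% GC, held 1 ETS match, 1 GC box and 3 CCAAT matches. Over 35116 RefSeq windows of 300 bases, 7.71% held the AP-1 motif, 11.5% the TATA box, 45.0% the GC box, 10.3% the ETS motif and 34.6% CCAAT. A match is a match of letters only.

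By level, the serpins stood well above the activators in both libraries. Levels are given in TPM (transcript abundance scaled to gene length and library), computed from the counts and the deposited gene lengths, with exact Poisson 95% intervals. SERPINE2, also called protease nexin-1, is a secreted inhibitor of thrombin, urokinase and plasmin. It was at 331 TPM in siCYP4F11 (325 to 337) and 308 TPM in siControl (303 to 313). SERPINB2, the plasminogen activator inhibitor PAI-2, is a largely intracellular inhibitor of urokinase. Its level was 102 TPM in siCYP4F11 (96.5 to 108) and 89.7 TPM in siControl (84.8 to 94.8). By the deposited gene lengths, these were the highest levels of the 6 genes in both libraries.

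The receptors lay in the middle. PLGRKT, a membrane protein whose C-terminal lysine binds plasminogen, was at 49.9 TPM in siCYP4F11 (44.4 to 55.8) and 50.4 TPM in siControl (45.5 to 55.7). PLAUR, the lipid-anchored receptor of urokinase, was at 35.0 TPM in siCYP4F11 (32.3 to 37.8) and 43.4 TPM in siControl (40.7 to 46.2). The intervals of these 2 genes were apart in siCYP4F11 and overlapped in siControl.

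The activators had the lowest levels. PLAU, which encodes urokinase, was at 15.3 TPM in siCYP4F11 (13.1 to 17.6) and 21.1 TPM in siControl (18.8 to 23.5). PLAT, which encodes tissue-type plasminogen activator, was at 15.5 TPM in siCYP4F11 (14.1 to 17.1) and 17.3 TPM in siControl (15.9 to 18.8). The levels of PLAU and PLAT overlapped in siCYP4F11, and in siControl PLAU lay just above PLAT. The deposited length covers every exon of a gene, so it understates genes with many transcripts. The longest protein-coding transcript was also used as length, a choice made after the data were seen. SERPINE2 then stayed highest in both libraries and PLAU was lowest in both. PLAUR then stood above PLGRKT in both libraries, and above SERPINB2 in siControl.

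**Figure D1:**
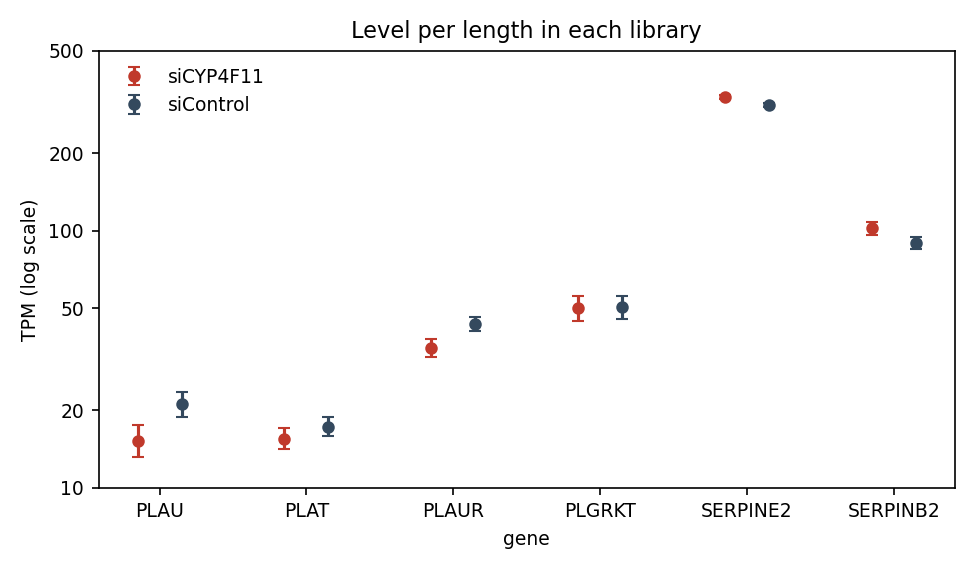
Level of each gene in TPM on a log scale, with siCYP4F11 in red left of siControl in grey and bars for the exact Poisson 95% interval of 1 library each. SERPINE2 is highest at 331 and 308 TPM, and PLAU and PLAT are lowest, between 15.3 and 21.1 TPM.

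None of the 6 genes differed 2-fold between the libraries. A gene was called where siCYP4F11 over siControl reached 2-fold in either direction (a log2 ratio of 1) with a counting interval clear of 0. This held for 0 of the 6 genes and for 1.96% of all tested genes. No gene of the 6 was called higher, against 0.703% of tested genes, and none was called lower, against 1.26%. All 6 genes had a mean CPM of at least 16.8, while most called genes lay below 5. At a mean CPM of at least 5, 5 genes were called higher and 19 lower, against 98 and 175 in all. By the counting interval alone, 2 of the 6 genes lay below 0, 2 lay above 0 and 2 had intervals that held 0. Over all tested genes the interval lay below 0 for 19.2% and above 0 for 18.6%, or 37.8% in all. These intervals hold counting error alone, and the spread of ratios between genes of like level was wider than that.

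PLAU had the ratio furthest from 0. It had 185 counts in siCYP4F11 and 315 in siControl, which is 14.2 CPM against 19.5 CPM. The siCYP4F11 library was the lower one, at 72.7% of the siControl level (60.2% to 87.4%). The log2 ratio was -0.46 (-0.73 to -0.19). Among the 400 tested genes nearest to it in mean CPM, 17 had a ratio as low or lower, which is 4.25%, and the SD of the ratios was 0.27. PLAU (ENSG00000122861) occupies bases 73909177 to 73917497 of chromosome 10 on the plus strand of GRCh38. C10orf55, on the opposite strand, overlaps 31.1% of its exon bases, and had 0 counts in siCYP4F11 and 1 in siControl. PLAU shares 20.7% of its 50-base words with another gene.

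PLAUR lay on the same side. It had 641 counts in siCYP4F11 and 979 in siControl, or 49.1 CPM against 60.6 CPM. The siCYP4F11 level was 81.0% of the siControl level (73.2% to 89.5%), a log2 ratio of -0.30 (-0.45 to -0.16). As low a ratio was found for 27 of the 400 genes nearest in mean CPM (6.75%). The gene (ENSG00000011422) occupies bases 43646095 to 43670547 of chromosome 19, minus strand. None of its 50-base words was shared with another gene.

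PLAT had 423 counts in siCYP4F11 and 580 in siControl, or 32.4 CPM against 35.9 CPM. Its log2 ratio was -0.15, with an interval from -0.33 to 0.03 that held 0, so the direction was not settled by the counts. Of the 400 nearest genes, 77 had as low a ratio (19.3%). This gene (ENSG00000104368) occupies bases 42175233 to 42207724 of chromosome 8, minus strand.

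PLGRKT had nearly the same level in both libraries. There were 306 counts in siCYP4F11 and 381 in siControl, or 23.4 CPM against 23.6 CPM. The log2 ratio was -0.0095 (-0.23 to 0.21), and the interval ran from 85.2% to 116% of the siControl level. PLGRKT (ENSG00000107020) occupies bases 5357973 to 5437878 of chromosome 9, minus strand.

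Both serpins lay on the upper side by small amounts. SERPINE2 had 12090 counts in siCYP4F11 and 13854 in siControl, or 926 CPM against 858 CPM, a log2 ratio of 0.11 (0.07 to 0.15). Its narrow interval follows from its high count, and 81 of the 400 genes nearest in mean CPM had a ratio as high (20.3%). SERPINB2 had 1156 counts in siCYP4F11 and 1248 in siControl, or 88.6 CPM against 77.3 CPM. Its siCYP4F11 level was 115% of the siControl level (106% to 124%), a log2 ratio of 0.20 (0.08 to 0.31). As high a ratio was found for 58 of the 400 nearest genes (14.5%). SERPINE2 (ENSG00000135919) occupies bases 223975112 to 224039319 of chromosome 2, minus strand, and SERPINB2 (ENSG00000197632) bases 63871692 to 63903890 of chromosome 18, plus strand. SERPINB10 on the same strand overlaps 19.9% of the exon bases of SERPINB2, and had 0 counts in siCYP4F11 and 3 in siControl. SERPINB2 shares 18.2% of its 50-base words with another gene.

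**Figure D2:**
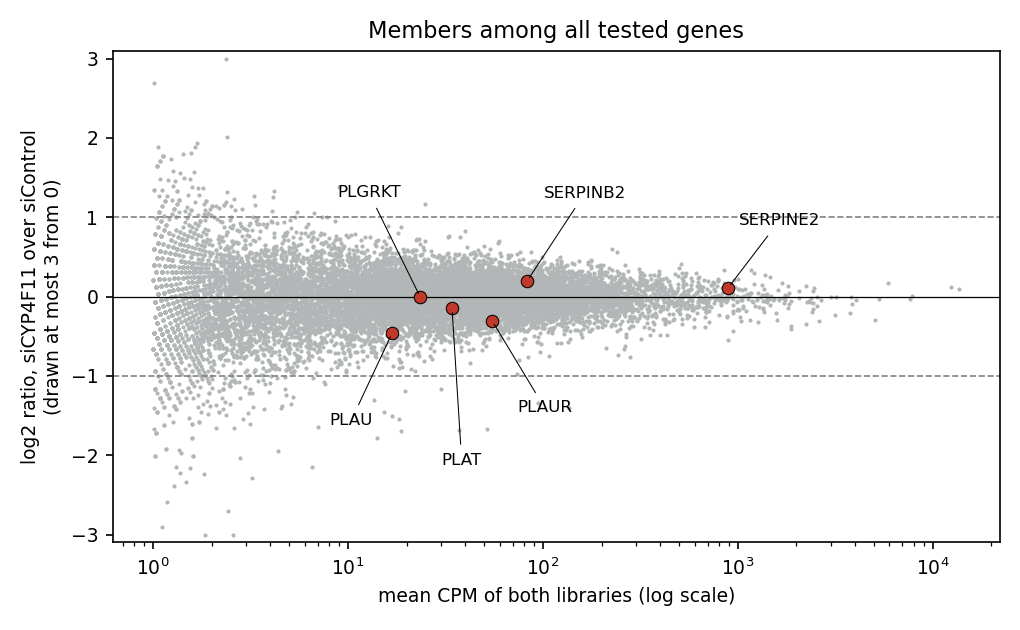
Log2 ratio of siCYP4F11 over siControl against mean CPM (log scale) for all 13942 tested genes in grey and the 6 genes in red, with dashed lines at 2-fold. All 6 lie between the dashed lines, with PLAU lowest at -0.46 and SERPINB2 highest at 0.20.

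GC content moved with the ratios, and the 6 genes differ in it. Over the 9590 genes whose mean CPM reached 10, the log2 ratio was lower where the GC content of the longest transcript was higher (Spearman rho -0.42 across genes, which are not independent and share both libraries). PLAUR had the highest GC content of the 6 genes at 55.7% and PLAU was next at 54.0%. PLAT was at 45.6%, while SERPINE2, PLGRKT and SERPINB2 were each at 41.0%. The 400 genes nearest in GC content had a median log2 ratio of -0.08 around PLAU, -0.07 around PLAUR, 0.0090 around PLAT and 0.10 around SERPINE2, SERPINB2 and PLGRKT.

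After a lowess curve on GC content was subtracted, PLAU was at -0.39 (-0.66 to -0.12) and PLAUR at -0.22 (-0.37 to -0.08). Both intervals stayed below 0. PLAT was at -0.17 (-0.35 to 0.02) and PLGRKT at -0.09 (-0.31 to 0.13). SERPINE2 moved to 0.03 (-0.0040 to 0.07), an interval that held 0, and SERPINB2 to 0.12 with a lower bound at 0.000068.

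**Figure D3:**
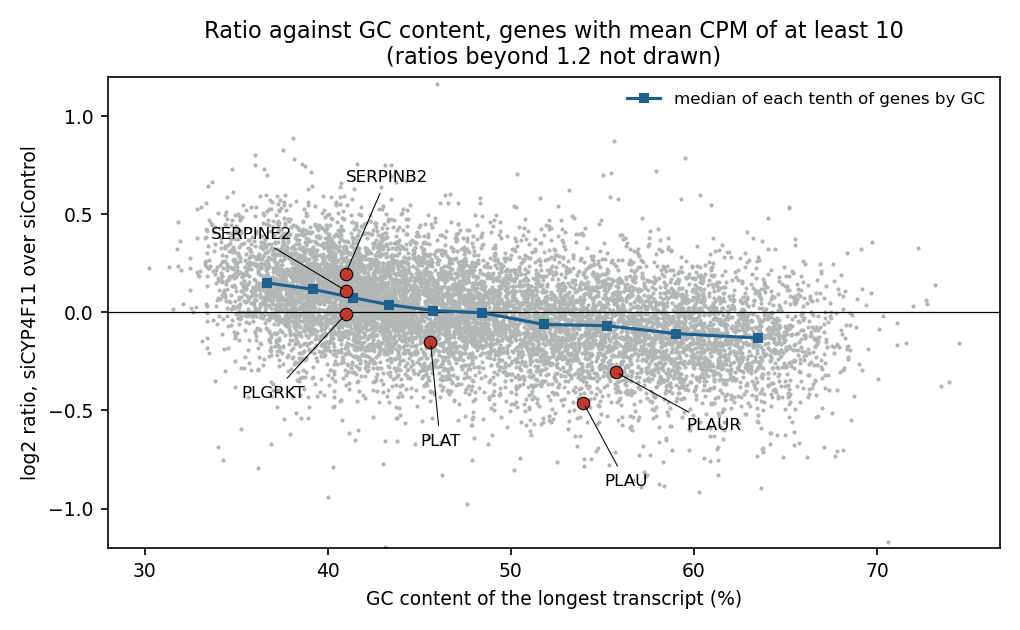
Log2 ratio of siCYP4F11 over siControl against the GC content of the longest transcript for genes whose mean CPM reached 10 in grey, the 6 genes in red and medians over 10 equal groups of genes by GC content in blue. The blue line runs from 0.15 at low GC content to -0.13 at high GC content, and PLAU and PLAUR lie below it.

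**Figure D4:**
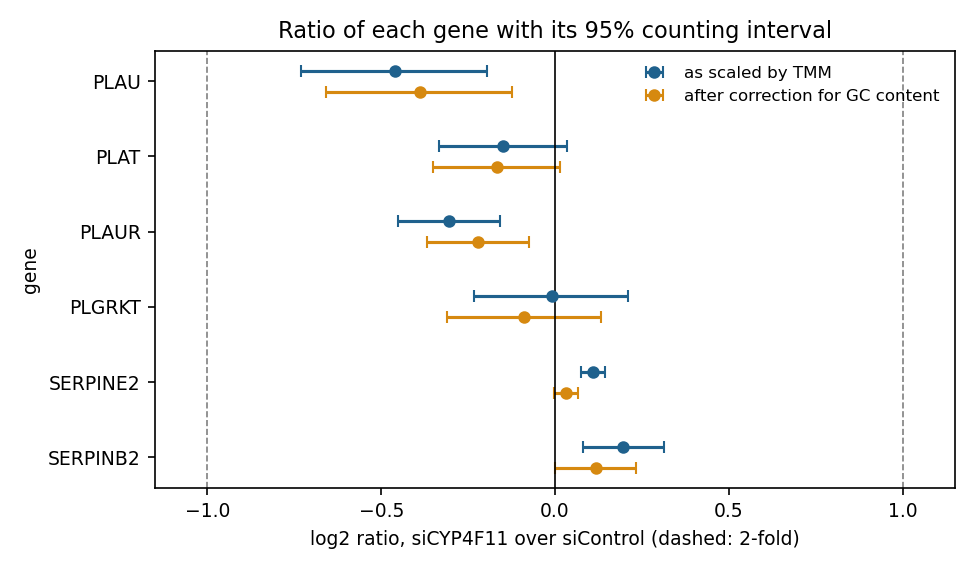
Log2 ratio of siCYP4F11 over siControl for each gene with its 95% counting interval, before (blue) and after (orange) the correction for GC content, with dashed lines at 2-fold. The intervals of PLAU and PLAUR lie below 0 both ways, and that of SERPINE2 reaches 0 after the correction.

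Ratios between 2 of the genes do not depend on how the libraries are scaled. Of the 15 pairs, 8 differed beyond counting error, and each of these set PLAU, PLAUR or PLAT below a serpin or below PLGRKT. The 15 pairs reuse the same 6 ratios, so these counts restate them, and no share over other pairs of genes was computed. Counting intervals alone excluded 0 for 37.8% of all tested genes. PLAU minus SERPINE2 was -0.57 on the log2 scale (-0.84 to -0.30) and PLAU minus SERPINB2 was -0.66 (-0.95 to -0.36). In TPM by the deposited gene lengths, SERPINE2 stood 21.7 times above PLAU in siCYP4F11 and 14.6 times in siControl. These folds depend on the length used, and were larger in both libraries with the longest protein-coding transcript as length. PLAUR minus SERPINB2 was -0.50 (-0.69 to -0.31) and PLAT minus SERPINB2 was -0.34 (-0.56 to -0.13). PLAU and PLAUR differed by -0.16 (-0.46 to 0.15) and SERPINE2 and SERPINB2 by -0.09 (-0.21 to 0.04), both intervals holding 0. After the GC correction 6 of the 15 pairs differed beyond counting error, and each of these set PLAU, PLAUR or PLAT below SERPINE2 or SERPINB2. PLAU minus SERPINE2 was then -0.42 (-0.69 to -0.15) and PLAUR minus SERPINB2 -0.34 (-0.53 to -0.15). The differences from PLGRKT then held 0, at -0.30 (-0.65 to 0.05) for PLAU and -0.13 (-0.40 to 0.13) for PLAUR.

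In the wider serpin family, SERPINE2 and SERPINB2 included, most tested genes had the higher level in siCYP4F11. The table holds 34 protein-coding genes of the family, of which 12 were tested, and 1 of these was called, against 1.96% of all tested genes. The interval lay above 0 for 8 genes (18.6% over all tested genes), below 0 for 1 (19.2% over all) and held 0 for 3. After the GC correction it lay above 0 for 6 (16.7% over all), below 0 for 1 (17.1% over all) and held 0 for 5, SERPINE2 and SERPINB6 among these. The median log2 ratio was 0.16 (0.11 after the GC correction), against -0.0055 over all tested genes. SERPINE2 and SERPINB2, already given above, are among the 8 genes above 0 before the correction. Intervals narrow as counts rise, and the shares over all tested genes include genes near 1 CPM. Here and for the lists below, these shares are therefore not matched for level. The called gene was SERPINI1, or neuroserpin, an inhibitor of tissue-type plasminogen activator. It had 21 counts in siCYP4F11 against 8 in siControl, a log2 ratio of 1.65 (0.47 to 3.08). At 1.61 CPM in siCYP4F11 and 0.496 CPM in siControl, its mean of 1.05 CPM passed the filter only through the library where it is high. Its direction is therefore partly set by the filter, and its call is no support for a shift of the family. It is among the 8 genes above 0, and the 6 after the GC correction. SERPINB5, known as maspin, had 1033 counts in siCYP4F11 and 1013 in siControl, at 0.33 (0.21 to 0.46). SERPINB11 had 994 counts in siCYP4F11 and 1430 in siControl, at -0.22 (-0.34 to -0.10), and shares 14.9% of its 50-base words with another gene.

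SERPINE2 supplied 35.3% of the summed serpin TPM in siCYP4F11 and 35.1% in siControl, by the deposited gene lengths. This was the largest share of the family in both libraries, and other lengths were not tried for the family. SERPINB2 ranked 3 in both, at 10.9% in siCYP4F11 and 10.2% in siControl. SERPINB1, an inhibitor of neutrophil proteases named after its value was seen, ranked between them at 173 TPM in siCYP4F11 and 168 TPM in siControl. In the cluster of clade B serpins around SERPINB2 on chromosome 18, SERPINB5, SERPINB11 and SERPINB8 were tested too. SERPINB8, also named after its value was seen, had 680 counts in siCYP4F11 and 710 in siControl, at 0.24 (0.09 to 0.40). SERPINB7, SERPINB12, SERPINB13 and SERPINB4 of this cluster had 0 counts in both libraries. The inhibitor of plasmin SERPINF2 had 0 counts in siCYP4F11 and 1 in siControl.

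Genes that bind or clear plasminogen and its activators were mixed, and 0 of 14 tested were called (1.96% over all tested genes). Intervals lay above 0 for 3 (18.6% over all), below 0 for 6 (19.2% over all) and held 0 for 5. The median was -0.0090. The GC correction left 5 above 0 (16.7% over all) and 4 below (17.1% over all). PLG, which encodes plasminogen itself, had 0 counts in both libraries, which allows up to 0.230 CPM in siCYP4F11 and 0.186 CPM in siControl. The lowest member was MRC2, an endocytic collagen receptor that associates with the urokinase receptor, with 167 counts in siCYP4F11 and 385 in siControl, at -0.90 (-1.17 to -0.63). LRP1, which clears complexes of protease and serpin from the surface, was at -0.34 (-0.54 to -0.14) with 350 counts in siCYP4F11 and 547 in siControl. MRC2 and LRP1 had GC contents of 63.7% and 60.1%, and were at -0.76 and -0.22 after the GC correction. HMGB1 was at 0.29 (0.24 to 0.34) and VLDLR, another clearance receptor, at 0.23 (0.05 to 0.40). After the GC correction HMGB1 was at 0.17 (0.12 to 0.22) and VLDLR at 0.17, with a lower bound at 0.00041. HMGB1 shares 10.9% of its 50-base words with another gene.

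Partners of the urokinase receptor and plasmin-linked matrix genes included 16 tested members, of which 0 were called (1.96% over all tested genes). Intervals lay above 0 for 3 (18.6% over all), below 0 for 6 (19.2% over all) and held 0 for 7. The median was -0.10. The GC correction left 1 above 0 (16.7% over all) and 5 below (17.1% over all). TGFB1, whose latent product plasmin can release, had 223 counts in siCYP4F11 and 458 in siControl, at -0.73 (-0.97 to -0.50). ITGA3, an integrin chain that binds the urokinase receptor, was at -0.43 (-0.64 to -0.23). After the GC correction TGFB1 was at -0.60 and ITGA3 at -0.31. On the upper side, the integrin chains ITGA5 and ITGAV were at 0.21 (0.07 to 0.35) and 0.18 (0.10 to 0.27). After the GC correction ITGA5 was at 0.28 (0.14 to 0.42) and ITGAV at 0.07 (-0.02 to 0.16), an interval that held 0.

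Among the 29 surface serine proteases and Kunitz inhibitors, 20 lay below a mean of 1 CPM and 10 had 0 counts in both libraries. In the whole count table, 44793 of 58735 genes lay below that mean and 32827 had 0 counts in both. Low detection was thus not particular to this list. Of its 9 tested members, 0 were called (1.96% over all tested genes) and the median was 0.05. TFPI, a Kunitz inhibitor of the tissue factor pathway, had 1863 counts in siCYP4F11 and 1712 in siControl, at 0.43 (0.33 to 0.52). SPOCK1 and APP, which carry protease inhibitor domains, were at -0.11 (-0.16 to -0.05) and -0.07 (-0.11 to -0.03). In the list of coagulation genes and thrombin receptors, which also holds TFPI, 0 of 10 tested were called (1.96% over all). The median was -0.01. F2RL2, a thrombin receptor, was at 0.33 (0.19 to 0.47). The surface anticoagulants THBD and PROCR were at -0.33 (-0.52 to -0.15) and -0.27 (-0.37 to -0.16), and were at -0.26 and -0.21 after the GC correction, when TFPI was at 0.36 and F2RL2 at 0.27. PROCR shares 11.6% of its 50-base words with another gene.

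Transcription factors linked to the PLAU and PLAUR promoters had a median of 0.0074 over 32 tested members. Of these, 0 were called (1.96% over all tested genes). Intervals lay above 0 for 5 (18.6% over all), below 0 for 7 (19.2% over all) and held 0 for 20. MITF had 236 counts in siCYP4F11 and 189 in siControl, at 0.63 (0.34 to 0.91), and ATF2 was at 0.28 (0.15 to 0.40). TEAD4, a partner of YAP, had 367 counts in siCYP4F11 and 625 in siControl, at -0.46 (-0.65 to -0.27), and ZEB1, a repressor of epithelial genes, was at -0.34 (-0.59 to -0.08). After the GC correction MITF was at 0.55, ATF2 at 0.14 (0.01 to 0.26), TEAD4 at -0.34 and ZEB1 at -0.45. Intervals then lay above 0 for 7 of the 32 (16.7% over all), below 0 for 10 (17.1% over all) and held 0 for 15.

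**Figure D5:**
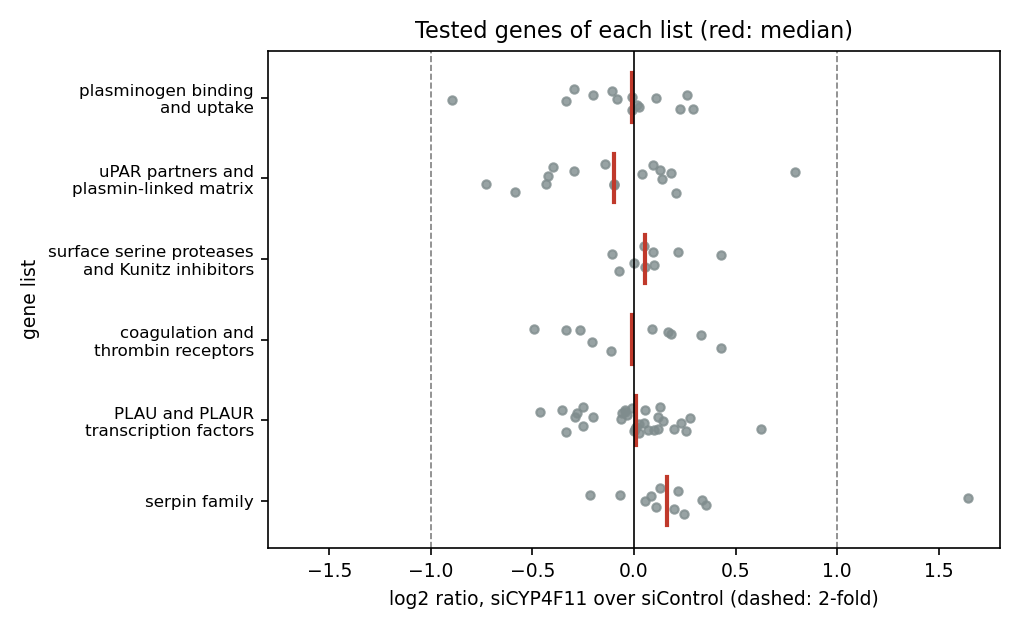
Log2 ratio of siCYP4F11 over siControl for the tested genes of each list, with 1 grey point per gene, a red bar at the median and dashed lines at 2-fold. Medians lie between -0.10 and 0.16. The point beyond 2-fold is SERPINI1 at 1.65, which passed the filter only through the siCYP4F11 library.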

How the data were processed

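RNA sequencing counts of 1 siCYP4F11 and 1 siControl library were used. The authors deposited whole-number read counts per gene, not normalised, and gene lengths in bases. Per the submitters' processing notes, the tools were featureCounts 2.0.6, HISAT2 2.2.1, edgeR 4.0.16 and fastp, with GRCh38 as build. Parameters and the use of strand in counting are not given in the sources used here, so counts of genes that overlap may mix. The number of other sample columns was 0.

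Counts were scaled by TMM in edgeR 4.0.16 (R 4.3.3), with factors of 1.004 for siCYP4F11 and 0.996 for siControl. Log2 ratios had 0.5 added to each count, with exact Clopper-Pearson 95% intervals, and pairs of genes had conditional odds ratio intervals. All intervals and the floor of 3 counts cover counting error only. EdgeR's quasi-likelihood test could not be fitted with 1 library per group. GC content and shared words of 50 bases came from GENCODE release 29, and lowess had a span of 0.3.

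Alternatives were other library scalings (DESeq2 1.42.0 size factors among them), 2 added to each count, GC correction, other filters and a 1.5-fold limit. The members and lists were chosen with earlier results of these data known. Named genes were the 6 members, CYP4F11, called list genes, and the 2 furthest up and 2 furthest down in each list whose interval excluded 0. A serpin that this rule names is not reported here. Python 3.11.15, numpy 2.4.6, scipy 1.17.1, pandas 2.3.3, statsmodels 0.14.6 and matplotlib 3.10.9 were used.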

Additional observations from a re-analysis of the deposited data

How the results depend on the processing

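Of 30 recomputed log2 ratios of the 6 genes, 29 stayed within the gene's counting interval. The other library scalings and the added counts shift these ratios far less than the interval widths. Only the GC correction was therefore able to move a ratio out. The ratio that left its interval was that of SERPINE2 with the GC correction, at 0.0313. SERPINB2 and PLGRKT, also at 41.0% GC, moved to 0.12 and -0.09, within their wider intervals. PLAU ranged from -0.46 to -0.39 and PLAUR from -0.30 to -0.22 over the alternatives. The sign changed for PLGRKT with total counts, at 0.0021. All 30 recomputed list medians stayed within their interval over members, and these intervals are wide beside the shifts.

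Without the filter 345 genes were called higher and 476 lower, against 98 and 175 in the comparison as reported. A mean CPM of at least 5 gave 5 and 19, a 1.5-fold threshold 284 and 479, and a table limited to protein-coding genes 50 and 103. More or fewer genes tested, or a laxer limit, account for these counts by construction. The 1.5-fold threshold called 0 of the 6 members. Of the lists it also called 1 of 14 tested plasminogen binding genes (MRC2), 1 of 16 urokinase receptor partners (TGFB1) and 1 of 32 transcription factors (MITF). These stand beside the 284 higher and 479 lower among all 13942 tested genes at that threshold. At a mean CPM of at least 5, 0 serpins were called, since SERPINI1 was no longer tested. Among the 200 nearest genes 52.5% lay as far as PLGRKT, against 46.8% of 400.

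With the transcript length, added after seeing the data, ranks from the highest level in siCYP4F11 became 3 for PLAUR and 4 for PLGRKT. In siControl they became 2 for PLAUR, 3 for SERPINB2, 4 for PLGRKT, 5 for PLAT and 6 for PLAU. No paired analysis was possible because each group had 1 library.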
